A study of Mus musculus with 6 samples.

Results

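Genes of catecholamine and tetrahydrobiopterin metabolism, 9 in all, were examined in mouse brain: the enzymes Th, Ddc, Maoa and Maob, the transporters Slc6a3 and Slc18a2, and the pteridine enzymes Gch1, Qdpr and Spr. The arrays measure 8251 genes with a probe set of 1 gene symbol. For 7 of the 9 a probe set with that symbol alone was listed, 9 probe sets in all, of which 3 belong to Maoa. Maob and Slc18a2 were not analysed here. The genes were chosen with the knockout against wild-type values of these arrays already known, so those values are given as a description and without a test.

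Total brain was taken from 3 male Ncam-/- mice, in which the gene of the adhesion protein NCAM (Ncam1) is knocked out constitutively and so in all cells, and from 3 male Ncam+/+ mice, all C57BL/6J. Animals 1 and 2 of either genotype were aged 2 months and animal 3 was aged 3 months. A one-colour Affymetrix array was used for each brain. The signal of a probe set is a scaled brightness and has no meaning against that of another probe set, and the 3 animals of a group limit the precision.

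Catecholamine neurons of the midbrain, hypothalamus, brainstem and olfactory bulb turn tyrosine into L-DOPA with tyrosine hydroxylase (Th), the rate-limiting enzyme, and L-DOPA into dopamine with aromatic L-amino acid decarboxylase (Ddc). Dopamine is packed into vesicles by Slc18a2, taken back up by Slc6a3 and oxidised by the mitochondrial monoamine oxidases Maoa and Maob. Tyrosine hydroxylase needs the cofactor tetrahydrobiopterin, which Gch1, Pts and Spr make in turn from GTP and which Qdpr and Pcbd1 recycle after each round of hydroxylation.

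The promoters of these genes were read from RefSeq's table of assembly GRCm38.p6, which held 9 entries for 8 of the 9 genes. Shown are the 150 bases before the annotated start of Th, whose highest and lowest signals came from the 3-month-old animals, and of Qdpr, the gene whose knockout signals all lay below the wild-type ones. Capitals mark the motif found in each, the cAMP response element TGACGTCA in Th (chr7:142899996-142900145, minus strand) and an inverted CCAAT box in Qdpr (chr5:45450230-45450379, minus strand).
Th: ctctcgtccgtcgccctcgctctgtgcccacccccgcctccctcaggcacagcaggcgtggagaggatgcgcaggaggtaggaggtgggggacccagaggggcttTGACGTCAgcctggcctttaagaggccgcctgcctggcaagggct
Qdpr: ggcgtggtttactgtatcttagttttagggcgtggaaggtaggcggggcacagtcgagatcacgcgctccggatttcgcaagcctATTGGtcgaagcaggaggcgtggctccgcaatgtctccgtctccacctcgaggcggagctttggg
Both strands were searched. TGACGTCA was found in 1 of the 9 entries, that of Th, where it begins 45 bases before the start, and in 1.36% of all 32851 promoter windows of that length. CCAAT was found in 3 of the 9 (Ddc, Gch1 and Qdpr) and in 24.5% of all windows. The GC box GGGCGG was found in 5 (Slc6a3, Slc18a2, Maoa, Gch1 and Spr) and in 28.6%, and TATAAA in 1 (an entry of Ddc) and in 7.57%. These matches describe the letters of the windows and were not tied to any measured value.

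Signals of the whole series were compared first. Ncam1, by its brightest probe set, read 270.8 ± 59.6 in knockout animals, against 1337 ± 116 in wild-type brains (SD, n = 3 each). A pair of knockout arrays stood apart in markers of brain regions. Of 9 measured cerebellar markers the summed signal was 2367 in knockout replicate 2, with Gabra6 at 11.8, against 8655 to 9935.7 on the other 5 arrays. Of 8 measured pituitary markers it was 15816 in knockout replicate 1, against 985 to 1401 on the other 5. The 3' to 5' signal ratio of the Gapdh control, a sign of RNA quality, ranged over 0.811 to 0.826 in the knockout group and over 0.768 to 0.798 in the wild-type group, which did not overlap. That of the actin control was 1.22, 1.18 and 1.14 in knockout replicates 1, 2 and 3 and 1.09, 1.08 and 1.196 in wild-type replicates 1, 2 and 3, with overlap. Differences of the tested members are therefore also given without these knockout replicates. A test was made for 7453 probe sets, those with a mean log2(signal + 16) at or above the 40th percentile. Of these 2 passed at an adjusted p under 0.05 in limma, 0.0268% of them.

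**Figure D1:**
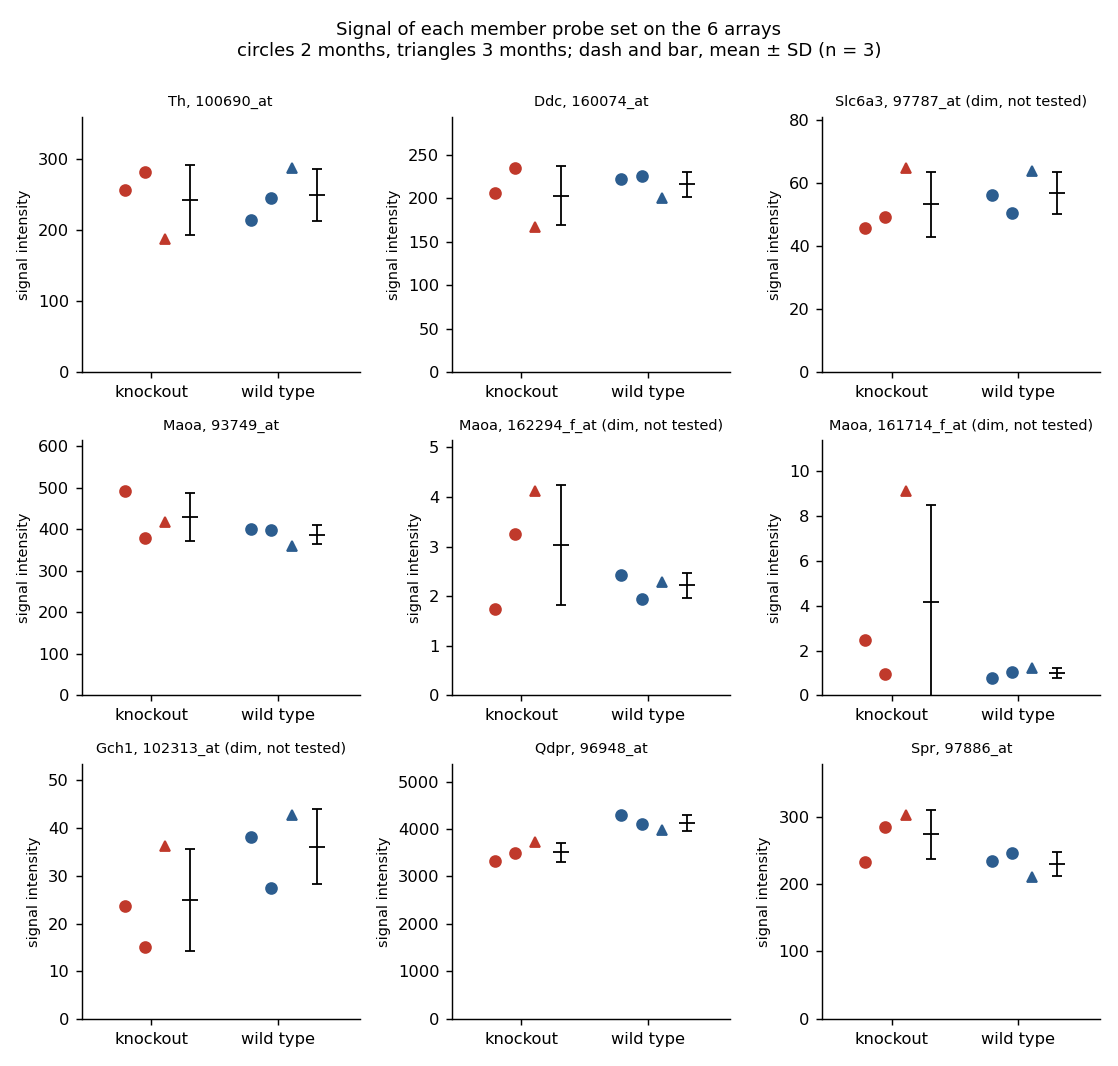
Signal intensity (linear axis from 0, arbitrary units) of each of the 9 member probe sets in 3 knockout (red, left) and 3 wild-type (blue, right) brains. The knockout signals of Qdpr, between 3318 and 3723, lie below all wild-type signals, and the groups overlap in the other 8 panels.

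Among the pteridine enzymes Qdpr, the dihydropteridine reductase that regenerates tetrahydrobiopterin, was lower in knockout brains. Its signal was 3318, 3485 and 3723 in knockout replicates 1, 2 and 3 and 4299, 4095 and 3986 in wild-type replicates 1, 2 and 3. The groups did not overlap, and the knockout animal nearest to the wild-type range was the 3-month-old one. The mean was 3509 ± 204 in knockout animals, against 4127 ± 158 in wild-type brains (SD, n = 3 each), 15.0% lower, a log2 difference of -0.23 ± 0.06 (SE). Of the 5 tested member probe sets 1, Qdpr, had knockout signals wholly below the wild-type ones and 0 had them wholly above, where 6.8% and 6.08% of all tested probe sets did. Without knockout replicate 1 the log2 difference was -0.19, and without knockout replicate 2 it was -0.23.

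Qdpr is strongly expressed in oligodendrocytes of mouse brain, and markers of glia were therefore set beside it. Of 14 listed oligodendrocyte markers 11 were measured, and their summed signal was 16256 to 17678 in knockout animals, against 17950 to 19259 in wild-type brains, without overlap. This sum is mostly that of the brightest genes, and by the mean log2 value of the list, in which each gene counts alike, the groups overlapped, at -0.11, -0.0036 and -0.23 in knockout replicates 1, 2 and 3 and -0.01, 0.05 and -0.04 in wild-type replicates 1, 2 and 3, against the wild-type mean. Of these 11 genes 7 had lower knockout means on the log2(signal + 16) scale, 5 without overlap between the groups, and 0 were wholly higher. Of all 5665 tested genes 401 were wholly lower and 325 wholly higher in knockout animals, 12.8% in either direction. Among the 11 markers Mag, the myelin-associated glycoprotein, read 759.2 ± 112 in knockout animals, against 1030 ± 108 in wild-type brains (SD, n = 3 each). No marker was at 0. The dimmest, Cnp, was below the filter limit and not tested, and read 9.81, 38.2 and 22.9 in knockout animals, against 8.52, 12.8 and 19.7 in wild-type brains. Its log2 difference, 0.37, was the highest of the 11 markers, and it weighs in the list mean like the bright genes. The list mean was not taken without Cnp, so the overlap of the groups in that mean may rest on this probe set. Of 10 listed astrocyte markers 8 were measured, with a summed signal of 14065 to 14861 in knockout animals, against 15313 to 15783 in wild-type brains, again without overlap. Of these 8 genes 6 had lower knockout means on the log2 scale, 3 without overlap, and 1, Gja1, the gap junction protein of astrocytes, was wholly higher by a less specific probe set, at 3082, 3313 and 3528 in knockout animals, against 3075, 3020 and 2705 in wild-type replicates. On the log2 scale Qdpr relative to the mean of the oligodendrocyte markers lay at -0.21, -0.24 and 0.08 in knockout replicates 1, 2 and 3 and at 0.07, -0.06 and -0.01 in wild-type replicates 1, 2 and 3, all against the wild-type mean. On this relative scale knockout replicate 3 lay just above the highest wild-type animal and the other knockout animals below the lowest, so the groups overlapped. The part of the glial markers and of the Gapdh ratio in the Qdpr difference was not tested, and in total brain fewer cells of a type and less RNA per cell cannot be told apart.

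**Figure D2:**
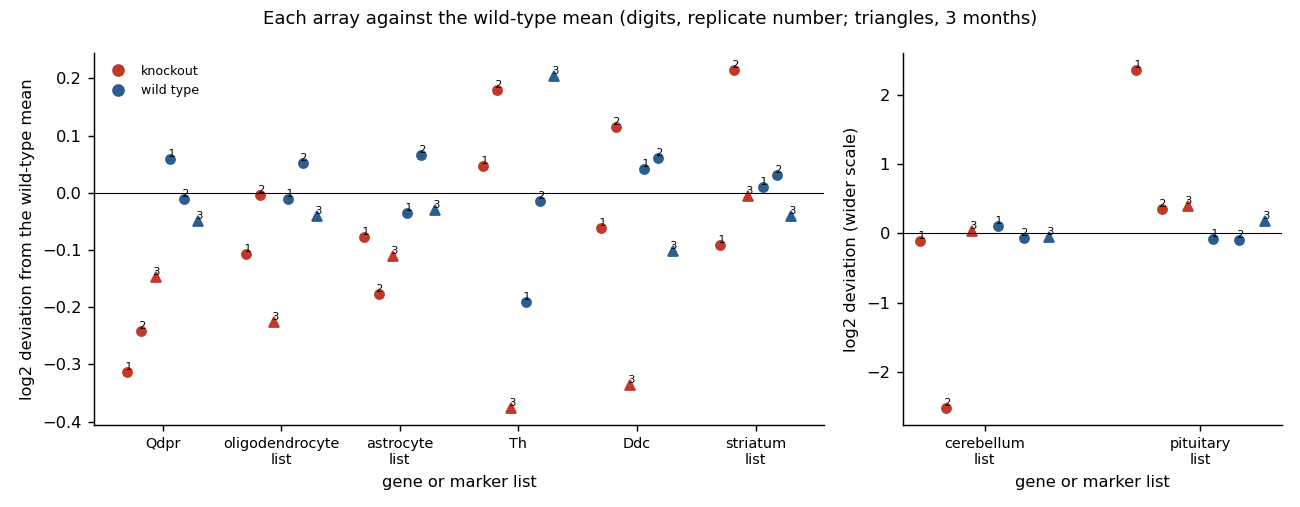
Deviation of each array from the wild-type mean on the log2(signal + 16) scale for Qdpr, Th, Ddc and the means of the oligodendrocyte, astrocyte, striatum, cerebellum and pituitary marker lists. Knockout is in red and wild type in blue, with digits giving the replicate number and triangles the 3-month-old animals. Knockout replicate 2 lies at -2.52 for the cerebellum list and knockout replicate 1 at 2.36 for the pituitary list, while Qdpr lies at -0.31, -0.24 and -0.15 in knockout replicates 1, 2 and 3.

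Spr, the sepiapterin reductase of the last step of tetrahydrobiopterin synthesis, read 233.0, 285.1 and 302.6 in knockout replicates 1, 2 and 3 and 233.5, 245.7 and 210.4 in wild-type replicates 1, 2 and 3. Knockout replicates 2 and 3 were above every wild-type animal and knockout replicate 1 was among them, so the groups overlapped. The log2 difference was 0.23 ± 0.12 (SE), of a size like that of Qdpr and of opposite sign. It was 0.34 without knockout replicate 1 and 0.20 without knockout replicate 2.

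Gch1, the GTP cyclohydrolase that starts tetrahydrobiopterin synthesis, was too dim to be tested. It read 23.7, 15.0 and 36.2 in knockout replicates 1, 2 and 3 and 38.2, 27.4 and 42.8 in wild-type replicates 1, 2 and 3. No array reached the filter limit, a signal of 72.2. The knockout mean was 24.98 ± 10.7 and the wild-type mean 36.1 ± 7.93 (SD, n = 3 each), and the 3-month-old animal was the brightest of each group. The groups overlapped, and the log2 difference was -0.37, without a standard error.

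Th overlapped between the genotypes. Its signal was 255.7, 281.9 and 186.6 in knockout replicates 1, 2 and 3 and 214.4, 244.3 and 287.1 in wild-type replicates 1, 2 and 3. The highest and the lowest of all arrays were the 2 animals of 3 months, wild type and knockout. The log2 difference was -0.05 ± 0.16 (SE), and it was -0.10 without knockout replicate 1, -0.16 without knockout replicate 2 and 0.11 without knockout replicate 3.

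Ddc read 205.7, 234.6 and 167.2 in knockout replicates 1, 2 and 3 and 222.2, 225.2 and 199.5 in wild-type replicates 1, 2 and 3. The knockout values enclosed all wild-type values, and the log2 difference was -0.09 ± 0.14 (SE), -0.11 without knockout replicate 1, -0.20 without knockout replicate 2 and 0.03 without knockout replicate 3. In each genotype the 3-month-old animal was the lowest. Set against Th on the same array, the log2 ratio of Ddc to Th lay between -0.11 and 0.04 in knockout and between -0.31 and 0.23 in wild-type brains, relative to the wild-type mean.

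Slc6a3, the dopamine transporter and the most selective marker of dopamine neurons among the members, was dim and not tested. It read 45.7, 49.1 and 64.8 in knockout replicates 1, 2 and 3 and 56.1, 50.5 and 63.8 in wild-type replicates 1, 2 and 3. The groups overlapped, and in either group the 3-month-old animal was the brightest.

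Of the oxidases, Maoa, which degrades noradrenaline, serotonin and dopamine, read by its bright probe set 491.4, 378.6 and 418.5 in knockout replicates 1, 2 and 3 and 400.7, 399.1 and 360.4 in wild-type replicates 1, 2 and 3. Knockout replicate 1, the array with high pituitary markers, was the brightest, and the groups overlapped. The log2 difference was 0.14 ± 0.11 (SE), and it was 0.04 without knockout replicate 1 and 0.22 without knockout replicate 2. The other Maoa probe sets, of a less specific kind, read at most 9.09 on any array and add no second measurement of the gene.

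**Figure D3:**
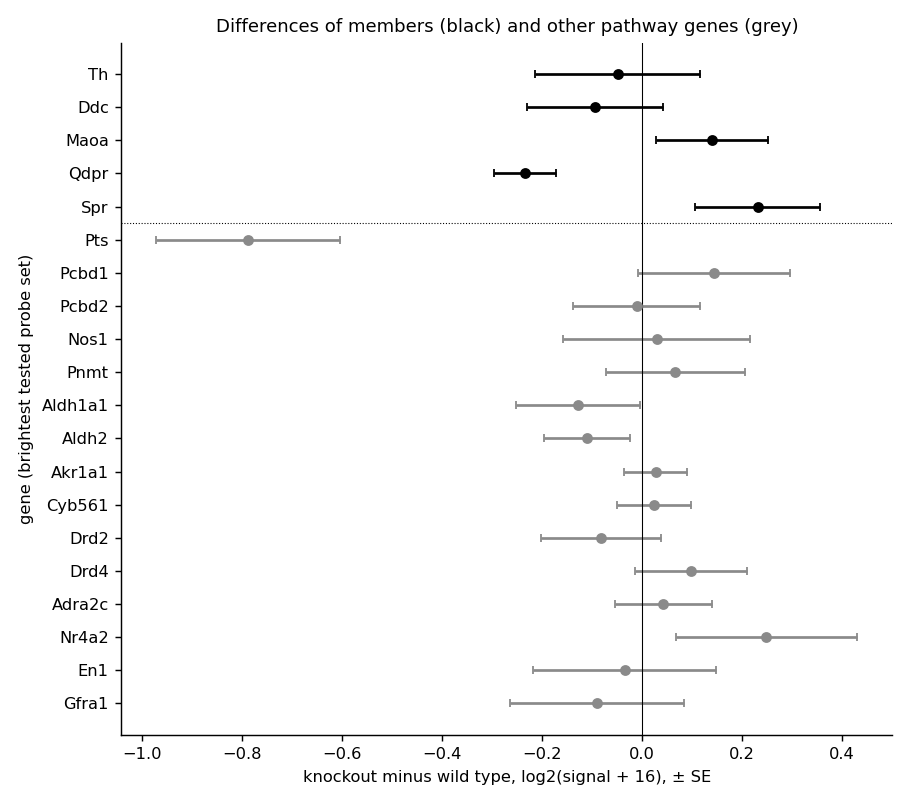
Knockout minus wild-type differences on the log2(signal + 16) scale with standard errors for the 5 tested members (black) and the 15 other tested pathway genes (grey). Pts lies farthest from 0 at -0.79, Qdpr at -0.23, and the remaining genes between -0.13 and 0.25.

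The other genes of the pathway were taken from a list of 49, of which 27 had a probe set of their own and 15 were bright enough to be tested. None passed at an adjusted p under 0.05 in limma (0 higher and 0 lower, against 0.0177% of all 5665 genes tested), and at an unadjusted p under 0.05 1 was lower and 0 were higher, where 6.78% of all genes were at such a p. The median log2 difference of the 15 genes was 0.02, with 8 positive and 7 negative, and that of all genes was -0.0016. The groups did not overlap for 2 of the 15, both lower in knockout, where 12.8% of all genes did not overlap in either direction.

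The 1 gene at low unadjusted p by its brightest probe set was Pts, the 6-pyruvoyltetrahydropterin synthase that acts between Gch1 and Spr. It read 102.1, 71.0 and 120.5 in knockout replicates 1, 2 and 3 and 198.7, 160.2 and 174.8 in wild-type replicates 1, 2 and 3, so every knockout signal was below every wild-type signal. The log2 difference was -0.79 ± 0.18 (SE), the largest in size of the tested pathway genes and members, and it did not pass among all probe sets (adjusted p = 0.429 in limma, 0.209 to 0.940 over the alternatives that tested it). It was -0.83 without knockout replicate 1 and -0.61 without knockout replicate 2. This value was known when the list was drawn up. Pts lies on chromosome 9, as Ncam1 does, and the 9 chosen genes lie on other chromosomes. Whether this position has a part in the Pts difference was not tested. Of the tetrahydrobiopterin genes, the consecutive steps Gch1, Pts and Spr gave different values. Pts was lower on every knockout array. Gch1 was dim, with a lower knockout mean, and Spr had a higher knockout mean, both with overlap between the groups. Pcbd1, the carbinolamine dehydratase that works with Qdpr in recycling, differed by 0.14 ± 0.15 on the log2 scale (limma, adjusted p = 0.851).

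Among genes of catecholamine breakdown, Aldh2, the mitochondrial aldehyde dehydrogenase that clears the aldehydes made by monoamine oxidases, read 444.9, 459.7 and 409.8 in knockout animals, against 467.1, 484.3 and 470.4 in wild-type replicates by its brightest probe set. The groups did not overlap, and the log2 difference was -0.11 ± 0.09 (adjusted p = 0.815 in limma). Its second probe set also had no overlap and gave -0.26 ± 0.11 (unadjusted p = 0.0346, adjusted p = 0.719 in limma). Its dimmest, of a less specific kind as the brightest also is, overlapped and had 0.11 ± 0.18. The dimmest probe set thus disagreed in sign with the brighter ones. Aldh1a1, the cytosolic enzyme found in part of the midbrain dopamine neurons, had -0.13 ± 0.12 (adjusted p = 0.848 in limma). Its other probe set was dim and not tested, and had a log2 difference of the opposite sign, 0.46, with overlap.

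Regulators and receptors of catecholamine neurons overlapped between the groups. Nr4a2, the nuclear receptor needed to form midbrain dopamine neurons, read 161.6, 212.6 and 232.8 in knockout animals, against 140.2, 152.3 and 213.2 in wild-type replicates, with a difference on the log2 scale of 0.25 ± 0.18 (limma, adjusted p = 0.809), and its second probe set had 0.21 ± 0.14. Within each genotype the 3-month-old animal gave the highest signal of that brighter probe set. The dopamine receptors Drd2 and Drd4 had log2 differences of -0.08 ± 0.12 and 0.10 ± 0.11 (adjusted p = 0.903 and 0.865), and Gfra1, a receptor subunit for glial cell line-derived neurotrophic factor, had -0.09 ± 0.17 (adjusted p = 0.929).

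Age was tested next, as a contrast that the choice of genes had not used, with 2 animals of 3 months against 4 of 2 months and genotype in the fit. The 4 younger animals include the 2 knockout animals that stood apart in cerebellar or pituitary markers. Of the 5 tested members 0 passed at an adjusted p under 0.05 in limma and 0 had an unadjusted p under 0.05, where 0.0268% and 12.4% of all probe sets did. Ddc had the lowest p. It read 167.2 (knockout) and 199.5 (wild type) at 3 months, below all 4 animals of 2 months at 205.7 to 234.6, with a log2 difference of -0.26 ± 0.12 (SE) and an adjusted p of 0.413. Qdpr differed by 0.03 ± 0.06 between the ages (adjusted p = 0.878), Th by -0.09 ± 0.18 (0.849), Maoa by -0.09 ± 0.12 (0.744) and Spr by 0.02 ± 0.13 (0.956). The dim Slc6a3 read 64.8 and 63.8 at 3 months and 45.7 to 56.1 at 2 months, without overlap and without a test. For Ddc and Slc6a3 the lack of overlap has no background here, as the share of all probe sets without overlap between the ages was not counted.

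**Figure D4:**
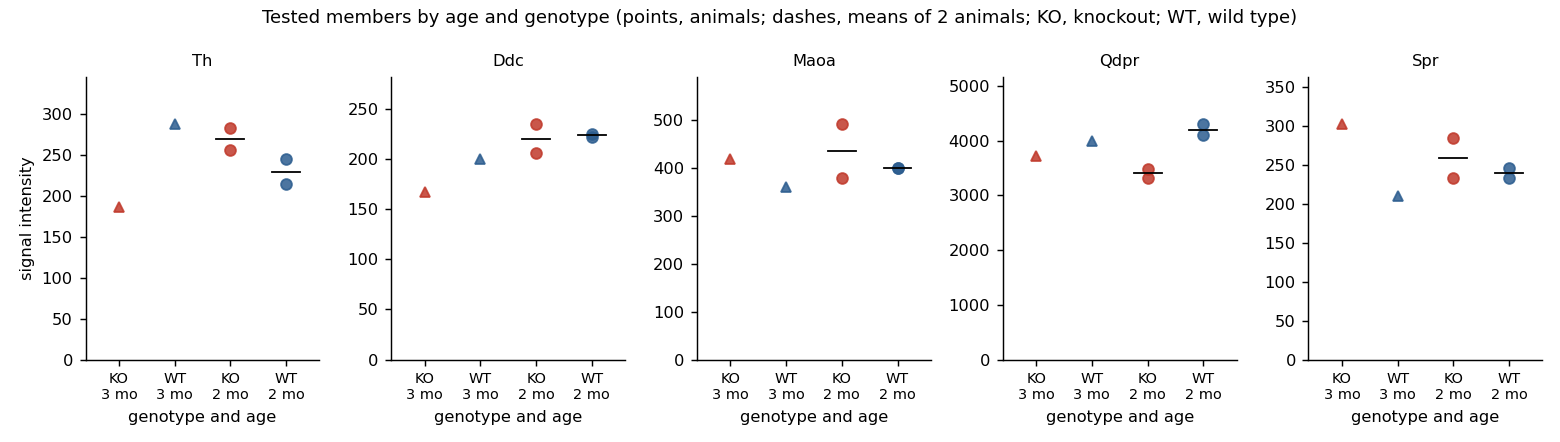
Signal intensity (linear axis from 0) of the 5 tested members in animals of 3 months (triangles, 1 per genotype) and 2 months (circles, 2 per genotype, dash at their mean), knockout in red and wild type in blue. Th is lower in the knockout animal than in the wild-type animal at 3 months (186.6 and 287.1) and higher in both knockout animals than in both wild-type animals at 2 months.

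The difference between the genotypes was also set side by side for the ages, a comparison added after the values had been seen. For Th the log2 value of knockout brains minus that of wild-type brains was -0.58 at 3 months, from 1 animal each, and 0.22 at 2 months, from 2 animals each. The 2-month-old knockout animals read 255.7 and 281.9, above the wild-type animals at 214.4 and 244.3. The change of the difference was -0.80 ± 0.23 (SE) and did not pass (adjusted p = 0.757 in limma). For Qdpr the difference was -0.10 at 3 months and -0.30 at 2 months (change 0.20 ± 0.11, adjusted p = 0.877), and for Spr 0.49 and 0.10 (change 0.39 ± 0.24, adjusted p = 0.908). Each of these rests on 1 knockout and 1 wild-type animal of 3 months. The 2 knockout animals of 2 months are also those that stood apart in cerebellar or pituitary markers. In the knockout group age and these marker differences therefore cannot be told apart.

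The genes whose log2 signals followed Qdpr and Th most closely over the 6 arrays were picked by the highest Pearson correlation among 5664 other genes, as a description. The points share the arrays and, for Qdpr, the difference between the groups. Nearest to Qdpr were Aifm1, a mitochondrial oxidoreductase (r = 0.984), 1700037H04Rik (0.982), the ion cotransporter Slc12a2 (0.975), the phosphatase subunit Ppp2r1a (0.972) and the small GTPase Rac1 (0.971). Aifm1 read 387.7, 453.7 and 466.1 in knockout animals, against 629.6, 560.5 and 539.8 in wild-type replicates 1, 2 and 3, the same order of animals as Qdpr. Nearest to Th were Ndufv3, a subunit of mitochondrial complex I (0.995), Rnf181 (0.9897), Vps37b (0.988), Usp4 (0.987) and Pno1 (0.981). No other member was among these 10 genes.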

How the data were processed

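Per the labels, one-colour Affymetrix arrays were hybridised with biotinylated cRNA of 6 total brains. GCOS 1.4 stands in the submitters' processing notes, with settings not given in the sources used here. Linear signal intensity per probe set is what the authors deposited. The authors appear, from the values, to have scaled each array to 1 target. The labels describe separate individuals.

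Of 12488 entries 66 were controls. Genes were named from the platform annotation, which can be old, and only from probe sets with 1 symbol. Signals were taken as log2(signal + 16), so differences of dim genes are understated, and probe sets at or above the 40th percentile (6.46 on that scale) were tested with limma 3.58.1 in R 4.3.3 (lmFit, eBayes with an intensity trend, two-sided, Benjamini-Hochberg over 7453 probe sets). Members have a difference and standard error without a p for genotype. Age was fitted with genotype as a covariate. Lists used the brightest probe set per gene. The text names all members, the 8 tested pathway genes with the lowest p, Pts, and the 5 genes most like Qdpr and Th. Cnp, Mag, Gja1, Gabra6 and, in the closing section, Slc6a2, Slc6a4, Htr1a and Gata3 were named after their values were seen. The members and lists were chosen with earlier results of these data known. The procedure was tested on simulated data.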

Additional observations from a re-analysis of the deposited data

How the results depend on the processing

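Across 19 alternatives the count of called pathway genes stayed at 0, and across 16 that of members called for age (lowest adjusted p 0.327 in limma). Of these 16, 1 was the change of the genotype difference with age, another contrast than age itself, added after the values had been seen. Leaving out 1 array in turn gave log2 differences between knockout and wild type of -0.28 to -0.19 for Qdpr, 0.16 to 0.34 for Spr, 0.04 to 0.22 for Maoa, -0.16 to 0.11 for Th, -0.20 to 0.03 for Ddc, -0.20 to -0.00067 for Slc6a3 and -0.56 to -0.18 for Gch1. In 2-month-old animals alone Th had 0.22. Knockout replicate 3 alone was set against the wild-type animals, a choice made after seeing the data. It assumes that the lone animal varies like the others. Qdpr then had -0.15, Th -0.38, Ddc -0.34, Slc6a3 0.15, Gch1 0.015, Spr 0.38 and Maoa 0.11, and the cause was not tested. Over all probe sets 2 were called for genotype and 0 to 4 under the alternatives, and 2 for age and 0 to 5. Same-numbered animals did not deviate together in every pair (correlations 0.01, 0.15 and 0.20), and the replicate block, which with complete pairs cannot move a mean difference (Qdpr -0.23), gave 0 called pathway genes and an adjusted p of 0.320 for Pts in limma. At the 60th percentile dimmer genes, Pts among them, were not tested. Signal over background limits Gch1, Slc6a3 and the less specific Maoa probe sets.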

Other observations

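The noradrenaline transporter Slc6a2, which marks noradrenaline neurons, had a mean log2 value below the filter limit by both of its probe sets and was not tested. Knockout replicate 3 alone read above the matching signal of 72.2, on both probe sets. One read 32.5, 61.3 and 108.8 in knockout replicates 1, 2 and 3 and 29.3, 27.2 and 28.2 in wild-type replicates 1, 2 and 3, without overlap. The other read 54.6, 47.0 and 80.6 in knockout animals, against 39.8, 37.6 and 47.6 in wild-type replicates, with overlap. Of 5 listed markers of serotonin neurons, which share Ddc, Slc18a2, Maoa and tetrahydrobiopterin with catecholamine neurons, 3 were measured. The serotonin transporter Slc6a4 read 104.0, 80.0 and 141.1 in knockout animals, against 127.1, 96.7 and 142.7 in wild-type replicates by a less specific probe set, and the receptor Htr1a 97.1, 76.8 and 133.2 in knockout animals, against 87.6, 72.1 and 90.2 in wild-type replicates. The groups overlapped for both. Gata3, a transcription factor of some serotonin neurons, was dim at 67.8, 56.6 and 72.1 in knockout animals, against 53.6, 45.5 and 46.5 in wild-type replicates, without overlap and without a test.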
